A study of Homo sapiens with 16 samples.

Results

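The 9 Polycomb group genes EZH1, EZH2, SUZ12, EED, JARID2, RNF2, BMI1, CBX2 and ASXL1 were examined for N6-methyladenosine (m6A) peaks in 2 prostate cancer cell lines. Their members in the data were the merged peak regions that overlapped a gene's GENCODE span by at least 1 bp, 21 of 36970 regions in the series, together with the 132 peaks whose summits lay in those spans. All 21 regions lay in 6 of the genes. No merged region and no peak of any list lay in EZH1, EZH2 or RNF2. Of all 20033 annotated protein-coding genes, 43.1% also held no region, a share that includes genes whether or not they are expressed in these lines.

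Polycomb proteins keep developmental genes silent by modifying histones. The PRC2 complex trimethylates a lysine of histone H3 through the alternative catalytic subunits EZH1 and EZH2, with SUZ12 and EED as core subunits and JARID2 as an accessory subunit that binds chromatin. The PRC1 complex ubiquitinates histone H2A through RNF2, an E3 ligase that pairs with BMI1, while CBX2 reads the mark of PRC2, and ASXL1 is a cofactor of the deubiquitinase BAP1, which removes the PRC1 mark. EZH2 is well known in advanced prostate cancer, where it is often highly expressed. m6A is written on mRNA at adenosines in the sequence DRACH, of which GGAC is a common core, mostly in long exons and around stop codons.

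MeRIP-seq, in which RNA fragments bound by an anti-m6A antibody (IP) are sequenced beside unenriched fragments (input), was done on C4-2B cells, which respond to the prostate cancer drug enzalutamide, and on MDV-R cells. MDV-R is a single resistant line that was obtained by serial passage of C4-2B and is kept in enzalutamide, so that resistance, passage and the presence of the drug cannot be told apart. Each line gave 4 IP and 4 input libraries, 16 in all, of wild-type cells harvested at day 3, and nothing states whether the replicates were separate cultures, so p-values measure the spread between these libraries. Sample titles of MDV-R also hold the name T24R2, and the cell line field was followed. All 10 prostate luminal marker genes examined, HOXB13 and FOXA1 among them, held regions, with a peak in every C4-2B list for 7 of them and in every MDV-R list for 9, and 2 of 8 urothelial markers, UPK2 and UPK3A, did. The UPK2 region with a peak in all lists lies in the 5′UTR of the overlapping gene BCL9L, and the other UPK2 region had a peak in 2 MDV-R lists alone. UPK3A held 3 intronic regions. The region at chr22:45285065-45285983 had a peak in 2 C4-2B and 4 MDV-R lists, with 11 to 24 tags. The region at chr22:45291256-45291754 had a peak in 2 MDV-R lists alone, and the remaining UPK3A region in no list.

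Peaks had been called separately for each IP library, which gave 13191 to 24746 peaks per list in C4-2B and 23880 to 30645 in MDV-R. The numbers of tags (deduplicated reads), recovered from the peak statistics, in units of 1000000 were 0.864 to 1.21 per IP library, and 0.901 to 1.23 per C4-2B input library against 1.6 to 2.97 per MDV-R input library. Input depth therefore cannot be told apart from the line. The libraries that stood apart were C4-2B replicate 1, with the fewest peaks, and MDV-R replicate 3, whose local background was the highest of its line (median 14.9 times the library average, against 6.19 to 8.46 in the other MDV-R libraries).

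Stretches of 24 nt are printed to show the sequence context of the 6 regions that had a peak in all 8 lists. Each is centred near the GGAC closest to the strongest summit, with GGAC in capitals, on hg38 and on the plus strand, which is the strand of all 6 genes that held regions. They lie at chr11:86244918-86244941 in EED, chr6:15496289-15496312 and chr6:15501024-15501047 in JARID2, chr10:22329701-22329724 in BMI1, chr17:79784717-79784740 in CBX2 and chr20:32436717-32436740 in ASXL1.
EED exon 1, 5′UTR: ttaatccaacGGACcttacatcgt
JARID2 exon 7, CDS: aactggtcaaGGACaccaaaccca
JARID2 exon 8, CDS: gaactgcccaGGACcggctggcca
BMI1 exon 10, 3′UTR: atactcctatGGACgttaattgaa
CBX2 exon 5, CDS: ccagcaagagGGACtgtgtcaagg
ASXL1 exon 13, CDS: tgggaagttgGGACcaagcacaaa
The adenosine of GGAC lay 8 nt from the summit in EED, 7 nt in BMI1, 42 nt in JARID2 exon 7, 48 nt in CBX2, 53 nt in ASXL1 and 110 nt in JARID2 exon 8. In 5 of the 6 it was part of a full DRACH, and the BMI1 copy was not, since a G follows it. On the strand of the gene, GGAC occurred within 50 nt of the strongest summit in 4 of these 6 regions and in 6 of the 18 member regions with an exonic summit (33.3%), against 50.5% of the 7238 exonic regions with a peak in all lists and 45.5% of all 19366 exonic regions. A match describes the letters in the window and does not place a methylated base.

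**Figure D1:**
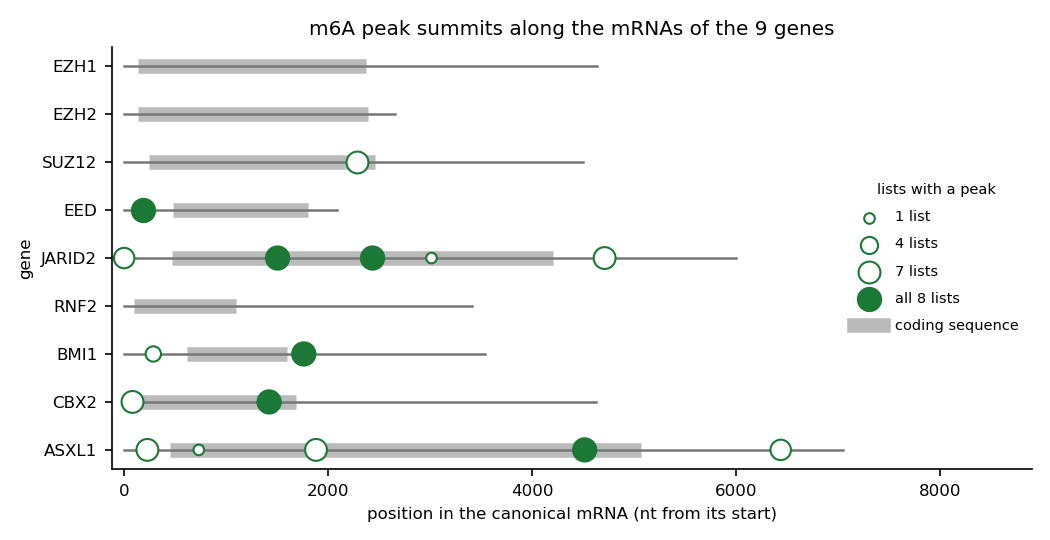
Position of the strongest summit of each exonic region along the canonical mRNA of the 9 genes, in nt from the mRNA start. Grey bars are coding sequence, circle size gives the number of lists with a peak, and filled circles mark the 6 regions with a peak in all 8 lists. EZH1, EZH2 and RNF2 have none, and the filled circles of BMI1, CBX2 and ASXL1 sit in the last exon.

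In PRC2, both catalytic genes were without a peak. EZH1 (chr17:42700275-42745049) has a last exon of 2318 nt, and its nearest peak was 11985 bp away. EZH2 (chr7:148807257-148884321), whose longest exon has 324 nt, had its nearest peak at 5463 bp. A missing peak means that no enrichment passed the peak caller's threshold at these depths, and it does not show that the mRNAs were unmethylated.

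SUZ12 (chr17:31937007-32001038) held 1 region, chr17:31998545-31999135, in its last exon of 2381 nt, with the summit 176 nt before the last coding base. It had a peak in 3 C4-2B and 4 MDV-R lists. Fold enrichment, the ratio of IP to local background at the summit, was 5.15 ± 0.940 (SD, n = 3) in C4-2B and 7.79 ± 3.78 (SD, n = 4) in MDV-R. EED (chr11:86201212-86278813) also held 1 region, chr11:86244156-86245300, which crossed the start of the canonical mRNA and peaked 186 nt into it, in the 5′UTR of exon 1. An antisense non-coding gene overlaps EED, and the lists carry no strand.

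JARID2 (chr6:15246069-15522042) held 6 regions, spread from the transcript start to the 3′UTR. Their peaks were in the 5′UTR (3 C4-2B and 3 MDV-R lists), at the border of exon 6 (3 and 4), in coding exon 7 (4 and 4), in coding exon 8 (4 and 4), at the edge of coding exon 10 (0 and 1) and in the 3′UTR 502 nt after the last coding base (3 and 4). Exon 7 has 1039 nt and is the longest internal exon of the mRNA. The strongest summit at exon 6 lay in the intron before it, while 234 of the 436 nt of that region lay in the exon. The antisense gene JARID2-AS1 overlaps the JARID2 span. Among protein-coding genes with a region, 10.7% held 6 or more.

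In PRC1, RNF2 (chr1:185045526-185102603) had no peak, with the nearest 71682 bp away, although its longest exon has 2404 nt. BMI1 (chr10:22321099-22331484) held 2 regions. The region with a peak in all lists, chr10:22328833-22329978, peaked in the 3′UTR 167 nt after the last coding base, and its 8 summits lay within 17 nt of each other. The other region, in the 5′UTR, had a peak in 1 C4-2B and 2 MDV-R lists with 16 to 22 tags. BMI1 lies within the COMMD3-BMI1 readthrough gene on the same strand, so that tags of both transcripts were counted together.

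CBX2 (chr17:79778148-79787983) held 4 regions. The one in its last exon, chr17:79783578-79787399, was 3822 nt long and covered 3668 nt of an exon of 4252 nt. Regions of at least 3800 nt made up 0.527% of the merged list, whose median length was 537 nt. The strongest summit lay 262 nt before the last coding base. The remaining 3 regions were in the 5′UTR (3 C4-2B and 4 MDV-R lists) and at intron borders before exon 3 (2 and 3) and exon 4 (1 and 2). A single further CBX2 peak, in MDV-R replicate 4 with 13 tags, lay outside the merged regions.

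ASXL1 (chr20:32358330-32439319) held 7 regions, the most of the 9 genes. The region in its last exon, chr20:32434192-32438003, covered 3572 nt of an exon of 4888 nt, with the strongest summit 553 nt before the last coding base and a peak in all 8 lists. A 3′UTR region in the same exon had a peak in 2 C4-2B and 4 MDV-R lists, and the regions of coding exon 12 and of the 5′UTR each had a peak in 3 and 4. The regions at exon 5 and before exon 11 had a peak in 1 MDV-R list each, with 15 and 27 tags.

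Across the 21 regions, 5 peaked in the 5′UTR (EED, JARID2, BMI1, CBX2 and ASXL1), 8 in coding sequence and 3 in the 3′UTR of the canonical transcript, and 5 in its introns. Of the intronic ones, 2 ASXL1 summits fell in exons of non-coding transcripts. In the whole series, 5.65% of regions peaked in a 5′UTR. That share also counts regions outside genes, which the member regions could not include, so the shares are not directly comparable. Member regions with a peak numbered 6 in C4-2B replicate 1, 15 in each of the other C4-2B lists and 16 to 20 in the MDV-R lists.

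**Figure D2:**
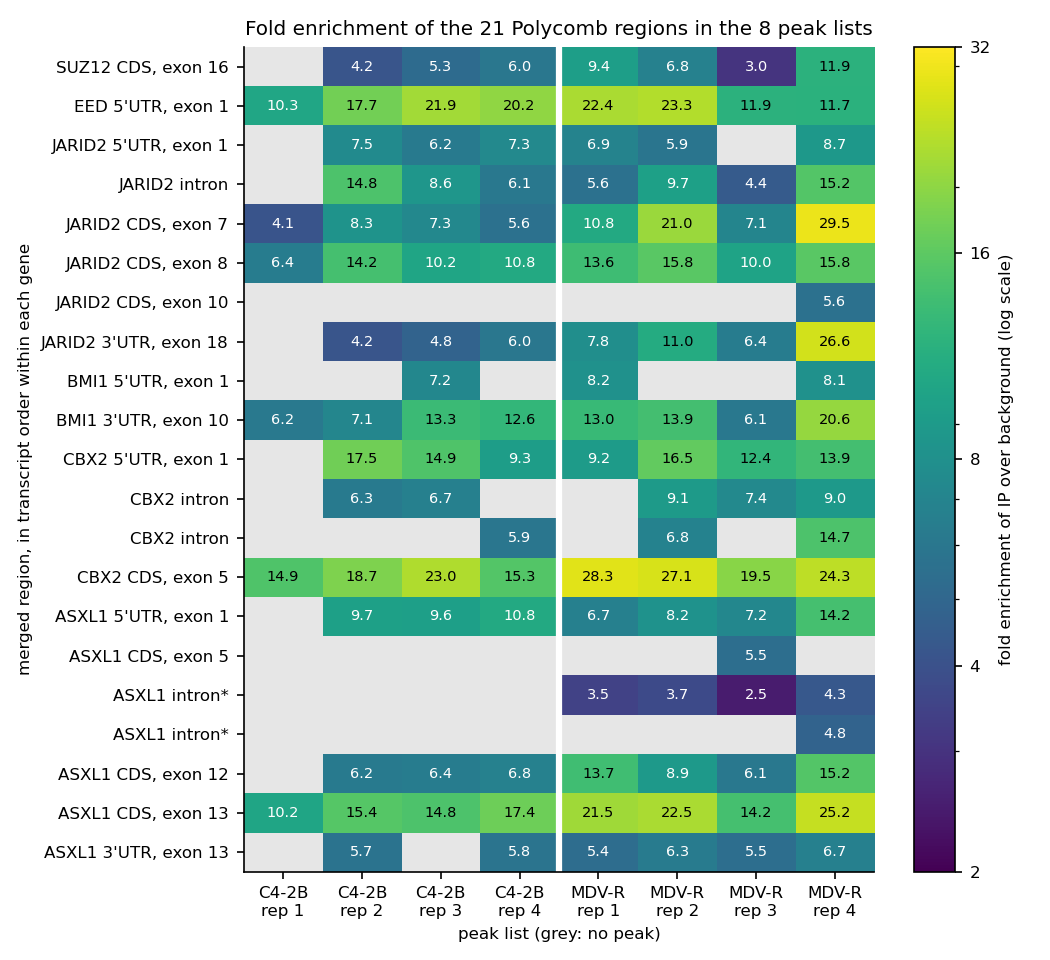
Fold enrichment of IP over local background (colour, log scale, and printed value) of the strongest peak of each of the 21 regions in the 8 lists, with grey where there was no peak. An asterisk marks intronic summits that fall in an exon of a non-coding transcript. The grey cells are most frequent in C4-2B replicate 1, which had a peak in 6 of the 21 regions.

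The first comparison asked whether a region had peaks in 1 line alone. A peak in all 8 lists was found at 6 of the 21 regions, against 25.9% of the 36076 regions with a peak in any list. At 6 more regions a single list was without a peak, and in each case this was C4-2B replicate 1, as it was for 93.5% of the 3194 regions of the series with a peak in 3 C4-2B and 4 MDV-R lists. Without that library, 12 of the 21 regions had a peak in every list. At 14 regions the peak was in more lists of MDV-R (49.7% of all regions), at 7 in as many of each, and at 0 in more lists of C4-2B (18.4%). The part that list length and input depth have in this imbalance was not tested.

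Peaks in all MDV-R lists and none of C4-2B were found at 1 member region (3.68% of all regions), and the reverse pattern at 0 (1.22%). That region, chr20:32431054-32431631 in ASXL1, overlapped 164 nt of coding exon 9 and 49 nt of exon 10. Its summits lay in exon 9 in MDV-R replicates 1 and 2 and in the intron before it in replicates 3 and 4. Its highest fold enrichment was the lowest such value among the 21 regions. Fold enrichment was 3.45, 3.74, 2.48 and 4.30 in MDV-R replicates 1 to 4, from 20, 17, 19 and 16 IP tags, and the −log10 q was 4.60, 4.60, 2.05 and 5.40, where the lowest value of each list was 2.00 to 2.11. The two-sided Fisher's exact test gave p = 0.0286, the smallest that 4 lists against 4 allow, and an adjusted p of 0.584 over all regions. That was the lowest adjusted p of any region, so no region could pass. The test therefore cannot decide whether the lines differ at this region. With peaks limited to a −log10 q of at least 5, or with each list cut to as many peaks as the shortest one, the region no longer had a peak in all MDV-R lists and the count fell to 0.

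**Figure D3:**
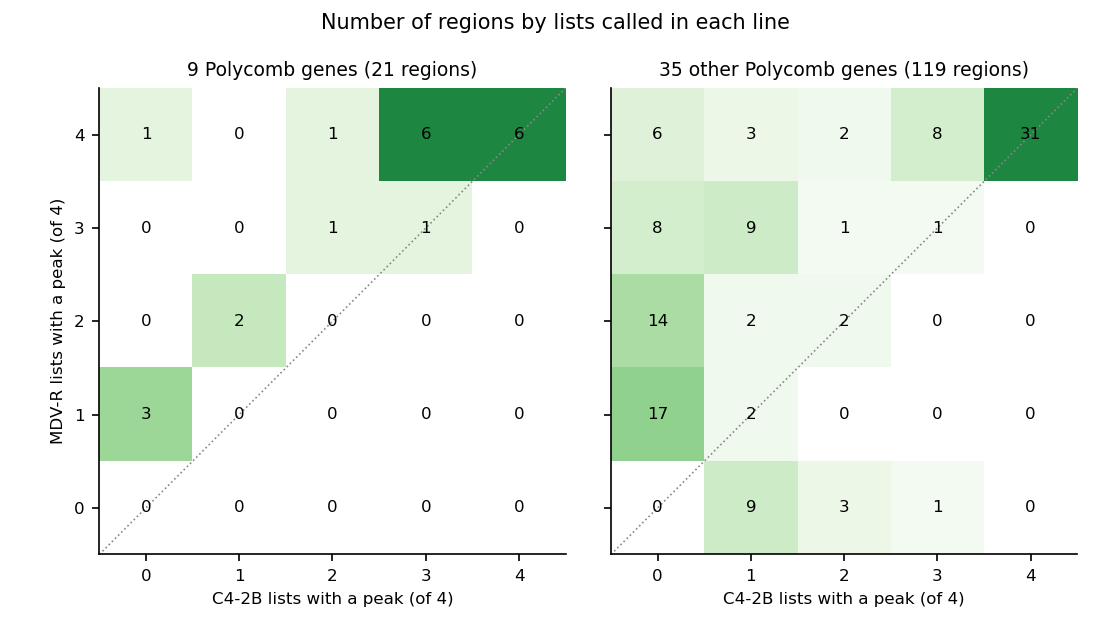
Number of regions by the number of C4-2B lists (horizontal) and MDV-R lists (vertical) with a peak, for the 9 genes and for 35 other Polycomb genes. The dotted line marks equal numbers, below which lie 0 of the 21 regions.

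The second comparison asked whether enrichment differed between the lines at the 6 regions with a peak in all lists. In log2 units, with each library centred on its median over the 9327 regions with a peak in all lists, 0 of 6 passed limma's test for fold enrichment, where 0.847% of the 9327 regions were higher in MDV-R and 1.79% lower. Of the 6, 1 had an unadjusted p under 0.05, as did 17.9% of the 9327 regions. The deposited values were higher in MDV-R as a whole, by 0.40 in the mean of the library medians, those of IP tags by 0.08, and those of local background were lower (−0.49). All differences below are relative to these shifts.

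EED had a fold enrichment of 10.3, 17.7, 21.9 and 20.2 in C4-2B replicates 1 to 4 and of 22.4, 23.3, 11.9 and 11.7 in MDV-R. The groups overlapped, with the lower values in C4-2B replicate 1 and MDV-R replicates 3 and 4. The difference was −0.44 (SE 0.28, adjusted p = 0.429, limma).

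JARID2 exon 7 had 4.10, 8.29, 7.33 and 5.62 in C4-2B and 10.8, 21, 7.08 and 29.5 in MDV-R. The summit of C4-2B replicate 1 lay at 15496479, and those of the other lists at 15496259 to 15496309. All values of that library at this region were thus read at another position. MDV-R replicates 1, 2 and 4 were above every C4-2B library, and replicate 3 was within their range. The difference was the largest of the 6, 0.87 (95% interval 0.27 to 1.47, adjusted p = 0.109, limma), and it passed without MDV-R replicate 3 (1.09, adjusted p = 0.0414) and without centring (1.27, adjusted p = 0.0273), with adjusted p of 0.0273 to 0.340 over all alternatives. JARID2 exon 8, by contrast, had 6.41, 14.2, 10.2 and 10.8 in C4-2B and 13.6, 15.8, 10.00 and 15.8 in MDV-R, a difference of 0.04 (95% interval −0.43 to 0.51) with overlapping groups.

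BMI1 had 6.15, 7.12, 13.3 and 12.6 in C4-2B and 13, 13.9, 6.06 and 20.6 in MDV-R, a difference of 0.00 (95% interval −0.58 to 0.58). The lowest of its 8 values was in MDV-R replicate 3. CBX2 had 14.9, 18.7, 23 and 15.3 in C4-2B and 28.3, 27.1, 19.5 and 24.3 in MDV-R, a difference of 0.07 after centring (95% interval −0.43 to 0.57). ASXL1 exon 13 had 10.2, 15.4, 14.8 and 17.4 against 21.5, 22.5, 14.2 and 25.2, a difference of 0.12 (95% interval −0.34 to 0.59). In CBX2 and ASXL1, replicate 3 alone of the MDV-R libraries fell within the C4-2B range.

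IP tags at the summit were scaled to the IP depth of each library (CPM, in units of 1000000 tags). The difference after centring was negative at all 6 regions, and 4 of 6 passed the test as lower in MDV-R, in CBX2, both exons of JARID2 and BMI1. Over all 9327 regions, 27.0% passed as lower in MDV-R and 23.3% as higher, and the median difference was −0.02 against −0.29 over the 6. IP tags follow both the methylation and the amount of an mRNA, and the 2 cannot be told apart here.

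CBX2 had 131, 169, 171 and 184 CPM in C4-2B replicates 1 to 4 and 98.8, 119, 116 and 116 in MDV-R. The highest MDV-R library was below the lowest C4-2B library. The difference was −0.62 (SE 0.07), 1.54-fold lower in MDV-R, with an adjusted p of 5.45e-05 (limma), and it passed with any single library left out. Over all alternatives the adjusted p was 4.55e-05 to 0.0619, the latter being the smallest that the exact permutation test allowed. JARID2 exon 8 had 45.6, 72.3, 56.8 and 62.5 against 40, 53.1, 50.6 and 44.6, a difference of −0.41 (SE 0.10, adjusted p = 0.00836).

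BMI1 had 83.7, 87.2, 104 and 115 in C4-2B and 73.2, 90.3, 76.9 and 87.0 in MDV-R. The difference of −0.33 (SE 0.10, adjusted p = 0.0181) did not pass without C4-2B replicate 1 (adjusted p = 0.0512) or MDV-R replicate 3 (0.0502). JARID2 exon 7 had 76.3, 88.2, 94.3 and 91.5 against 67.7, 85.0, 85.7 and 72.5. Its difference of −0.26 (SE 0.09, adjusted p = 0.0286) did not pass without C4-2B replicate 1 (0.0792), C4-2B replicate 3 (0.0627), MDV-R replicate 1 (0.0709) or MDV-R replicate 4 (0.0722). The calls for BMI1 and both JARID2 exons also did not hold without centring.

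EED, with 67.1, 74.3, 91.1 and 76.4 CPM in C4-2B and 68.8, 78.6, 70.1 and 60.2 in MDV-R, differed by −0.24 (adjusted p = 0.0915). ASXL1 exon 13 had 100, 140, 137 and 138 in C4-2B and 122, 138, 121 and 120 in MDV-R, a difference of −0.11 (adjusted p = 0.251). Neither passed, and their groups overlapped.

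**Figure D4:**
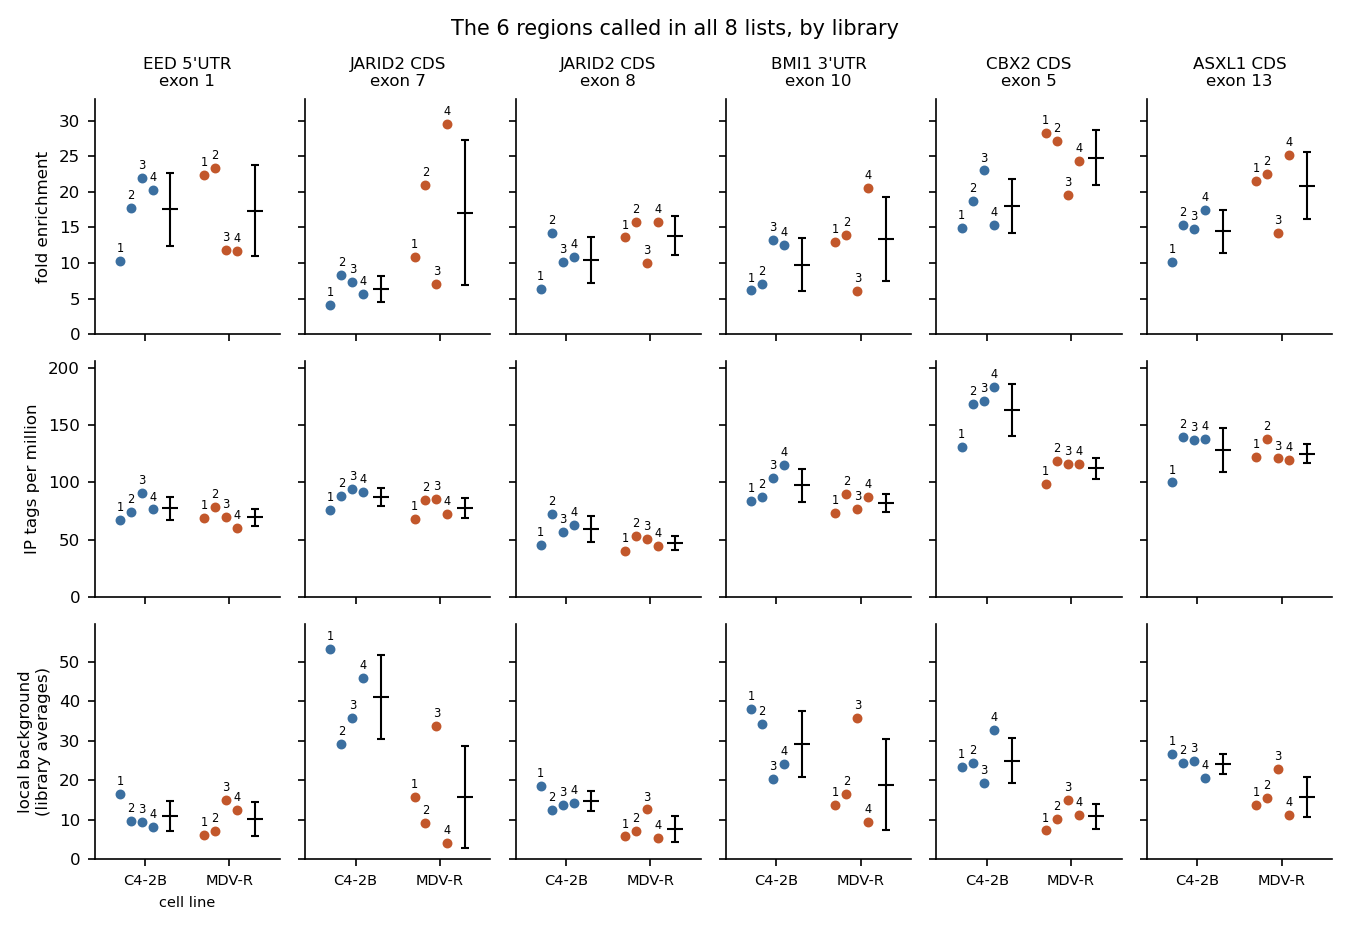
Fold enrichment, IP tags (CPM) and local background (in units of the library average) in each of the 8 libraries for the 6 regions with a peak in all lists. Points are libraries numbered by replicate, and bars give the mean ± SD (n = 4). The IP tags of CBX2 are the sole panel of that row in which the lines do not overlap.

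The local background under a peak, expressed in multiples of the average background of its library, is taken from input in windows around the summit and follows the amount of the transcript only roughly. None of the 6 regions passed for it (5.89% of the 9327 higher in MDV-R, 6.87% lower), while 3 had an unadjusted p under 0.05, as did 29.3% of the 9327. JARID2 exon 7 had 53.3, 29.3, 35.8 and 46.0 library averages in C4-2B and 15.7, 9.10, 33.8 and 4.14 in MDV-R, where replicate 3 was the highest and within the C4-2B range. The difference was −1.26 (SE 0.37, adjusted p = 0.0503, limma), and it passed without MDV-R replicate 3 (−1.50, adjusted p = 0.0375). In CBX2 the background was 23.3, 24.4, 19.3 and 32.8 in C4-2B and 7.25, 10.1, 15 and 11.1 in MDV-R, without overlap, and differed by −0.73 after centring (SE 0.28, adjusted p = 0.120). Without centring, JARID2 exon 7 (−1.75, adjusted p = 0.0307) and CBX2 (−1.22, adjusted p = 0.0479) passed. JARID2 exon 8 differed by −0.53 (adjusted p = 0.140), BMI1 by −0.27 (0.552), ASXL1 exon 13 by −0.16 (0.673) and EED by 0.33 (0.566).

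**Figure D5:**
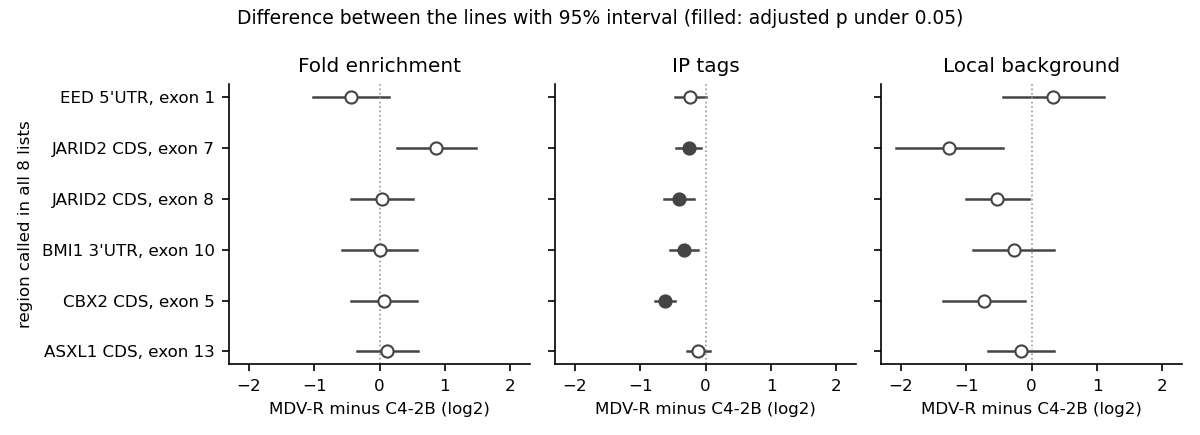
Difference between MDV-R and C4-2B (log2, centred per library) with its 95% interval for fold enrichment, IP tags and local background at the 6 regions with a peak in all lists. Filled points passed limma's test at an adjusted p under 0.05, which are the IP tags of JARID2 exons 7 and 8, BMI1 and CBX2.

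A fit over the 13507 regions with a peak in at least 3 lists of each line, added after the data were examined, took in 13 member regions, and a library without a peak was left out of the fit of that region. For fold enrichment 0 of 13 passed by limma (0.800% of these regions higher in MDV-R, 1.72% lower), with 2 at an unadjusted p under 0.05 (18.2% of these regions), and for local background 0 of 13 (5.29% higher, 5.30% lower), with 6 (28.1%). For IP tags 6 of 13 passed, all lower in MDV-R (23.9% of the regions lower, 22.0% higher). They were the 4 named above and 2 regions at transcript starts, the 5′UTR regions of JARID2 (−0.68, SE 0.11, adjusted p = 0.00178) and CBX2 (−0.66, SE 0.16, adjusted p = 0.00859). CPM were 31.0 ± 3.69 (SD, n = 3) against 18.6 ± 0.75 (n = 3) at the JARID2 start and 32.3 ± 2.29 (n = 3) against 20.4 ± 4.23 (n = 4) at the CBX2 start. Both rested on 13 to 35 tags per library. At every member region added by this fit, C4-2B replicate 1 had no peak and was left out. At the JARID2 start, MDV-R replicate 3 had no peak either and was also left out. What this did to the differences was not tested.

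SUZ12 differed by 0.20 in fold enrichment (SE 0.32, adjusted p = 0.795) and by −0.12 in IP tags (0.469) in that fit. The fold enrichment of the JARID2 3′UTR region ranged from 4.16 to 6.0 in C4-2B and from 6.42 to 26.6 in MDV-R, with a difference of 0.91 (SE 0.33, adjusted p = 0.144), and its background differed by −1.25 (adjusted p = 0.0886). The 5′UTR region of ASXL1 went the other way in background, from 2.98 ± 0.595 (SD, n = 3) in C4-2B to 5.29 ± 3.99 (SD, n = 4) library averages in MDV-R (difference 1.05, adjusted p = 0.0677), with the highest value, 11.3, in MDV-R replicate 3.

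For context, 35 other Polycomb genes were read the same way. Of these, 27 held a region, 119 in all, with 31 regions in 17 genes having a peak in all 8 lists. Among 7 other PRC2 genes 3 held a region, among 21 PRC1 genes 19 and among 7 PR-DUB genes 5, and BAP1 itself held none. The region in RBBP7 lies in the overlapping gene TXLNG, one of KDM2B in RNF34 and one of FOXK2 in WDR45B. A peak in all MDV-R and no C4-2B list was found at 6 of the 119 regions (3.68% over the series), 3 of them in L3MBTL2, with 14 to 41 tags, and 1 each in PCGF3, CBX8 and ASXL2. The reverse was found at 0.

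For fold enrichment, 1 of the 31 shared regions of these genes passed, a coding region of CBX6, another PRC1 reader, at 0.95 higher in MDV-R (SE 0.24, adjusted p = 0.0377, limma). Its IP tags differed by −0.08 (adjusted p = 0.509) and its background by −0.94 (0.0623). For IP tags 9 of the 31 were higher in MDV-R and 5 lower, against 0 and 4 of the 6 member regions. The median difference was −0.01 over the 31 regions. Without the KDM2B and FOXK2 regions that lie in overlapping genes, 9 of 29 were higher and 4 lower. Whether the 2 sets differ was not tested.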

How the data were processed

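The authors extracted total RNA, enriched m6A with an antibody in a low-input protocol, prepared stranded libraries and, per the study's methods and the submitters' processing notes, aligned reads to hg38 with STAR 2.7.0 and GENCODE 39, removed duplicates with SAMtools 1.10 and called IP over input peaks in each replicate with MACS2 3.0.0a6, with tags extended to 100 nt and the genome size set to 300 Mb. The deposited lists give for each peak a fold enrichment (a ratio), a −log10 p-value, a −log10 q-value and a score made from it. A deposited list of merged regions gives positions alone, and how it was merged is not given in the sources used here. Read counts per region were not analysed here.

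Spans and features came from GENCODE 44 on hg38, the build of the files, and coordinates are 1-based. A region was counted in a list where a peak overlapped it by 1 bp, with the strongest peak giving its value. The fold and −log10 p of a peak fix its IP tags and background under MACS2's Poisson model. A whole number of tags was found for 99.5% to 100% of peaks per list. These include peaks for which the fold alone was solved, with the background set to the library average. At a wrong scale, a whole number solved both statistics in 0.570% to 1.90%, a share that does not include such peaks. Regions with a peak in all 8 lists were tested with limma 3.58.1 (R 4.3.3) on log2 values, and lists with two-sided Fisher's exact tests, with Benjamini-Hochberg adjustment over all regions and a threshold of 0.05. The procedures were tested on simulated data. Genes, lists and regions to name were chosen with earlier results of these data known. Named were the member genes with all their regions, values in every list where a region had a peak in all 8 lists or a difference of 3 or more lists between lines, and other Polycomb genes where 1 line alone had peaks or the fold enrichment test passed. Alternatives were stricter peaks, equal list sizes, a 50% overlap, regions wholly within the span, no centring, an exact permutation test, a replicate block, the mean over peaks and leaving out libraries. Same-numbered libraries of the lines did not deviate together (correlations −0.07 to 0.04), so they were not paired. Intervals and tests cover the spread between libraries and counting error.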

Additional observations from a re-analysis of the deposited data

Results flagged for a closer look

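Among 39 sets of 4 values at the 6 shared regions and the ASXL1 region found in MDV-R alone, 4 held a library whose distance to its nearest neighbour, as a share of the range, exceeded the 95% critical value of Dixon's test, and chance gives about 1 in 20 sets. All 4 were IP tags (CPM). They were ASXL1 exon 13 in C4-2B replicate 1 (100 against 137 in the next library, share 0.925) and in MDV-R replicate 2 (138 against 122, share 0.889), CBX2 exon 5 in MDV-R replicate 1 (98.8 against 116, share 0.851), and the MDV-R region of ASXL1 in MDV-R replicate 1 (22.2 against 18.5, share 0.841).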

How the results depend on the processing

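The count of member regions with a peak in all lists of 1 line and none of the other, 1 as reported, was 0 with a −log10 q of at least 5 and 0 with lists cut to the length of the shortest, and 1 with each library left out. Leaving out a library cannot remove such a region, so that last count could not fall. Fold enrichment passed at 0 of 6 regions as reported, at 1 without centring and at 0 to 1 with 1 library left out. IP tags passed at 4 of 6 as reported, at 1 without centring, at 2 to 4 with 1 library left out (2 without C4-2B replicate 1), at 2 without both libraries that stood apart (added after the data were examined) and at 0 by the exact permutation test, whose smallest p of 0.0286 became 0.0619 after adjustment, so that no region could pass. Local background passed at 0 of 6 as reported, at 2 without centring and at 0 to 1 with 1 library left out. With a replicate block, IP tags passed at 3 of 6, since JARID2 exon 7 was lost (adjusted p = 0.0545), and the block changed no other call. The mean over peaks also left 3 of 6 for IP tags. By limma it gave JARID2 exon 7 an adjusted p of 0.0608, and CBX2 passed at 0.0403.

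Of 270 single values under the alternatives, 236 kept direction and side of the threshold, 17 no longer passed, 5 newly passed and 12 changed sign, none of the 12 at a value that passed as reported. In fold enrichment, leaving out 1 library gave −0.02 to 0.16 for JARID2 exon 8 and −0.18 to 0.21 for BMI1, and −0.04 to 0.18 for CBX2, and leaving out both libraries gave −0.01 for JARID2 exon 8. ASXL1 exon 13 turned to 0.38 in IP tags and 0.06 in background with the mean over peaks, and EED to −0.16 in background without centring. Over the 9327 regions, the share of passing regions that were higher in MDV-R went from 32.1% to 93.8% in fold enrichment, from 46.3% to 57.5% in IP tags and from 46.1% to 13.1% in background without centring. Regions with under 30 tags and all values at peaks alone limit what can be compared.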
